A study of Mus musculus with 11 samples.

Results

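Immediate early genes and heat shock chaperone genes were examined across 11 RNA sequencing libraries of mouse adrenal glands. The set holds 42 genes chosen by name, out of 23337 genes in the count table: 9 subunits of the transcription factor AP-1, 12 further transcription factor genes, 9 genes of feedback inhibitors, 8 other early response genes and 4 chaperone genes. All 42 had a row in the table, and 41 passed the filter on low counts. The donors were male Hsd:Athymic Nude-Foxn1nu mice, a strain with the nude allele of Foxn1, which lacks a thymus. Both groups carried VCaP cells, a human prostate cancer line, given in study week 0 to mice aged roughly 5 to 6 weeks. The 5 intact libraries are from mice that kept their testes and the 6 ORX libraries from mice whose testes had been removed. Allocation to the groups took place in week 7 and the glands were collected in week 15 and frozen in liquid nitrogen. The comparison asks how adrenal gene expression differs with and without testes, with the inoculation shared by all animals.

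Immediate early genes are switched on within minutes of a hormonal, neural or stress signal, from promoters whose factors (SRF with its ETS partners, CREB) are already in the cell, and most of their mRNAs are short-lived. In the adrenal cortex, corticotropin and stress raise Fos, Egr1 and Nr4a1, and the NR4A receptors bind promoters of steroidogenic enzymes. The feedback members of the set shorten the signal: DUSP phosphatases inactivate MAP kinases, ZFP36 and BTG2 promote mRNA decay, and SIK1 restrains CREB coactivators. Heat shock chaperone genes answer to another factor, HSF1, which is released when misfolded protein accumulates.

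Library totals ran from 11368447 to 15029582 counts. Cortex markers were high in all libraries (Star 9729 to 27903 CPM, read counts scaled to library size), medulla markers were present (Th 329.7 to 2531 CPM) and the kidney marker Umod was at 0 in all 11. The liver marker Alb was uneven, at 1.21 to 26.8 CPM in intact and from 1.36 CPM in ORX 2 to 178.7 CPM in ORX 6. The kidney and liver list summed to 2.45 to 41 CPM in intact and 2.86 to 238.6 CPM in ORX. Summed over 8 markers each, the cortex list was lowest in intact 3 (28475 CPM, against 40772 or more elsewhere), the fat list was highest in ORX 3 (10070.4 CPM) and intact 3 (8975 CPM), and the medulla list was highest in intact 1 (27205 CPM). ORX 6 stood apart in transcript length: the median deviation from the group mean was 1.16 lower on the log2 scale in its longest than in its shortest 10% of genes, against differences between -0.35 and 0.56 in the other libraries. The labels give no batch and no time between death and freezing.

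Levels of most members varied widely between libraries of the same group. The SD of log2 CPM around the group means had a median of 0.95 over the 41 tested members, against 0.36 over all 14139 tested genes. It was above that overall median for 39 members and within the top 10% of all genes for 29 (70.7%). The 2 members below the overall median were Jund, an AP-1 subunit known for steady expression, and Klf2, a factor prominent in endothelium (SD 0.27 and 0.35). The largest SDs were those of Fosb (2.27), Fosl1 (2.02), Fos (1.93), Nr4a2 (1.88), Junb (1.87) and Egr1 (1.71). Between the lowest and highest library of 1 group, 14 members spanned at least 10-fold in intact and 9 in ORX. The median span was 6.48-fold in intact, 4.11-fold in ORX and 3.36-fold among the 4 intact libraries other than intact 1. Over all tested genes, after adding 0.5 CPM, it was 1.7-fold, 1.87-fold and 1.62-fold. A span also depends on the number of libraries, which differed between these sets. In these bulk samples, fewer cells of a type and less RNA per cell cannot be told apart.

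**Figure D1:**
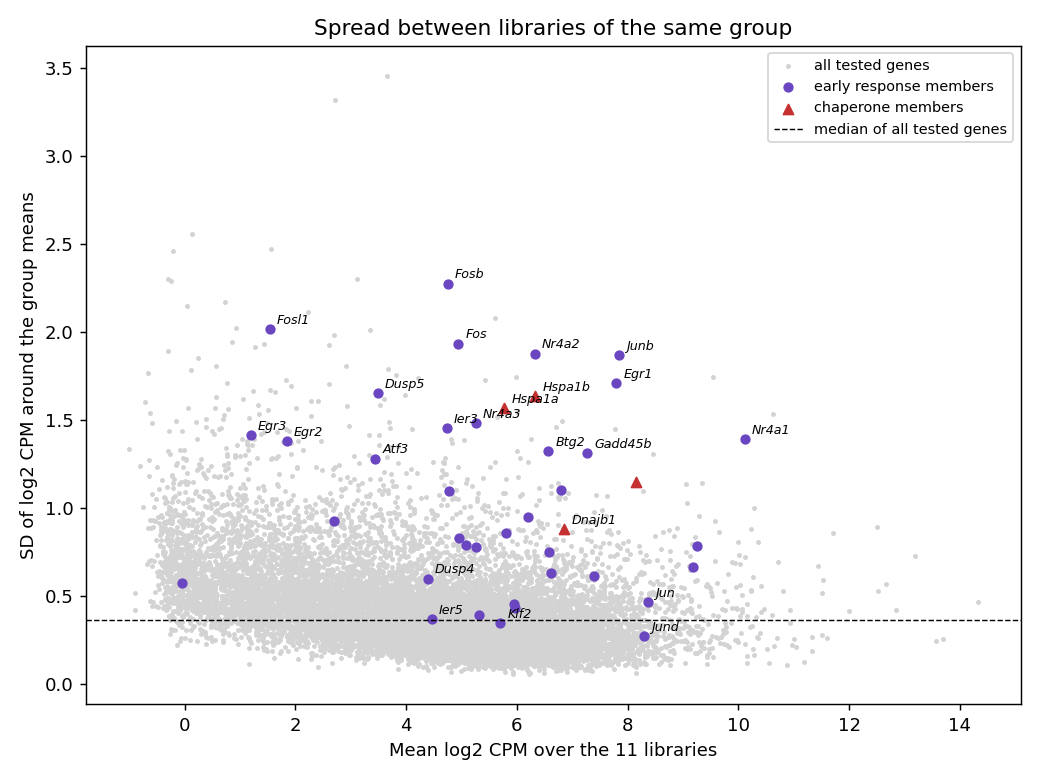
Each point is 1 tested gene, with its mean log2 CPM over the 11 libraries on the horizontal axis and the SD of log2 CPM around the 2 group means on the vertical axis. Purple circles are the 37 early response members and red triangles the 4 chaperones; 39 of the 41 lie above the dashed line, the median of all tested genes (0.36).

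The spread fell on particular libraries. Of the 37 tested early response members (all but the chaperones), 24 had their highest level of all 11 libraries in intact 1, and 26 were there at least 2-fold above the median of the other intact libraries, as were 2.73% of all tested genes. In intact 2, 16 members were at least 2-fold above that median (3.47% of all genes). In intact 3, 22 were at least 2-fold below (4.18% of all genes) and none were above, and 24 had their lowest intact level there. Among ORX libraries, ORX 3 held the highest level of 20 members, with 17 at least 2-fold above the median of the other ORX libraries (4.39% of all genes). ORX 5 had 11 and ORX 4 had 9 at least 2-fold below (1.79% and 1.15% of all genes). Intact 3 was also the library lowest in cortex markers, and intact 1 highest in medulla markers, as given above. The part of tissue make-up in these deviations was not tested.

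**Figure D2:**
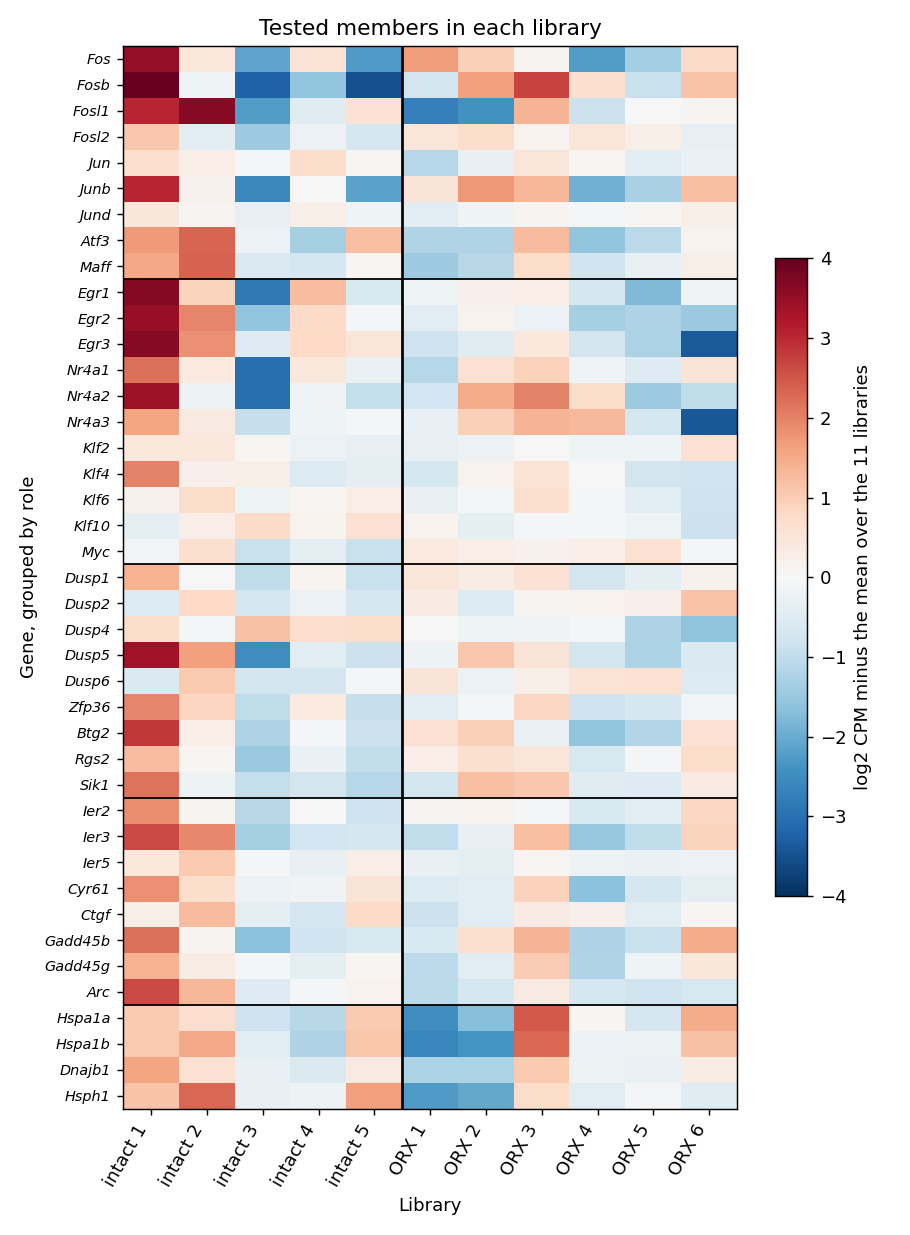
Rows are the 41 tested members, grouped by role, and columns the 11 libraries; colour is log2 CPM minus the gene's mean over all libraries (red above, blue below, the colour scale ends 4 log2 units from that mean on either side). Intact 1 is red in most early response rows, intact 3 is blue in most, and the 4 chaperone rows are blue in ORX 1 and ORX 2 and red in ORX 3.

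The AP-1 subunits form the dimeric factor that early signals converge on, with a FOS or ATF family protein on a JUN protein. Fos (chromosome 12, 85473890 to 85477273, GRCm38) is the prototype of the immediate early genes. Fos stood at 351, 40.8, 6.89, 45.2 and 6.21 CPM in intact 1 to 5, and at 6.39, 42.6 and 97.8 CPM as the lowest, median and highest of the 6 ORX libraries. Intact 1 was 14.7-fold above the median of the other intact libraries, intact 3 and 5 were as low as ORX 4, and the groups overlapped. Junb (chromosome 8, 84974484 to 84978718), a JUN protein, was also highest in intact 1; it overlaps Prdx2 on the other strand and may hold reads of that gene, as may Fosl1 those of Ccdc85b and Dusp1 those of Ergic1. Junb stood at 1891, 262, 38.2, 229.8 and 51.8 CPM in intact 1 to 5, and at 61, 425 and 760.3 CPM as the lowest, median and highest of the 6 ORX libraries. Intact 1 stood highest and intact 3 lowest of all 11. Fosb stood at 420.2, 24, 2.72, 8.95 and 2.2 CPM in intact 1 to 5, and at 14.3, 51.1 and 176 CPM as the lowest, median and highest of the 6 ORX libraries. This paralogue of Fos spanned 191-fold within the intact group and 12.2-fold within ORX.

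The promoters of Fos, Junb and Nr4a1 are shown for the cyclic AMP response element (CRE) core that they have in common. They are the 150 bases before the RefSeq start site on GRCm38.p6, 5′ to 3′, with each TGACG, or its reverse complement, in capitals (Fos chr12:85473740-85473889, plus strand; Junb chr8:84978749-84978898, minus strand; Nr4a1 chr15:101266696-101266845, plus strand):
Fos: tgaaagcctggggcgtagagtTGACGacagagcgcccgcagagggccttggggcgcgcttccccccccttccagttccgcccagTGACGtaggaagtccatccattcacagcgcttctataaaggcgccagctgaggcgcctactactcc
Junb: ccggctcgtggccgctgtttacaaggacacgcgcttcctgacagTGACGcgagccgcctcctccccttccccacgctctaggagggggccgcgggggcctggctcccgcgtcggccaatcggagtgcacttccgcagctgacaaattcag
Nr4a1: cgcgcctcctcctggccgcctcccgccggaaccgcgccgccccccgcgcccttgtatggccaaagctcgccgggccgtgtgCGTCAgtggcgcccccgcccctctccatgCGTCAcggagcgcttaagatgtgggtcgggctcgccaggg

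The 250 bases before each RefSeq start were read for 32 of the 42 genes. A gene with several starts, such as Egr2 or Maff, counted for a motif if any of its windows held it. The same rule was used for all genes. TGACG, searched on both strands, stood in 18 of the 32 members (56.2%) and in 19.8% of 27025 genes with such a sequence. The full CRE, TGACGTCA, which contains that core, stood in Dusp1, Btg2 and Maff (9.38%, against 1.77% of all genes), and the CArG box of SRF in Egr2, Dusp5 and Zfp36 (9.38%, against 1.62%). The AP-1 site TGACTCA was in no window of the 32 members and in 5.16% of all genes. These are letter matches in a short window, not measured binding, and their part in the members' levels was not tested. Members with the TGACG core included some highest in intact 1, such as Fos and Junb, and some not, such as Atf3 and Klf2. Levels of members with and without the core were not compared. RefSeq promoter sequences were not used here for Fosl1, Egr1, Egr3, Ier2, Dusp4, Klf10, Myc, Ctgf, Arc and Sik1.

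Fosl1, a FOS relative, and Atf3, a stress-responsive partner of JUN, had a different order of libraries. Fosl1 stood at 23.8, 35.9, 0.464, 1.92 and 4.17 CPM in intact 1 to 5, and at 0.287, 2.12 and 7.37 CPM as the lowest, median and highest of the 6 ORX libraries. Its highest level was in intact 2, and ORX 1 and ORX 2, which were high in Fos, were its lowest. Atf3 stood at 34.8, 54.1, 9.01, 4.18 and 24.6 CPM in intact 1 to 5, and at 3.5, 4.79 and 25.9 CPM as the lowest, median and highest of the 6 ORX libraries. Intact 2, intact 1, ORX 3 and intact 5 were high, and intact 4, high in Fos among the intact libraries, was low. Maff, a small MAF protein that dimerises with AP-1-like factors, was likewise highest in intact 2 (142 CPM) and intact 1 (79.9 CPM) and lowest in ORX 1 (9.84 CPM). Jun stood at 519.7, 397, 315, 539.8 and 338 CPM in intact 1 to 5, and at 149, 273 and 459 CPM as the lowest, median and highest of the 6 ORX libraries. Jun, the main JUN protein, thus varied within 1.71-fold in intact and 3.07-fold in ORX. Fosl2 ranged from 213 CPM in intact 3 to 1222 CPM in intact 1.

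**Figure D3:**
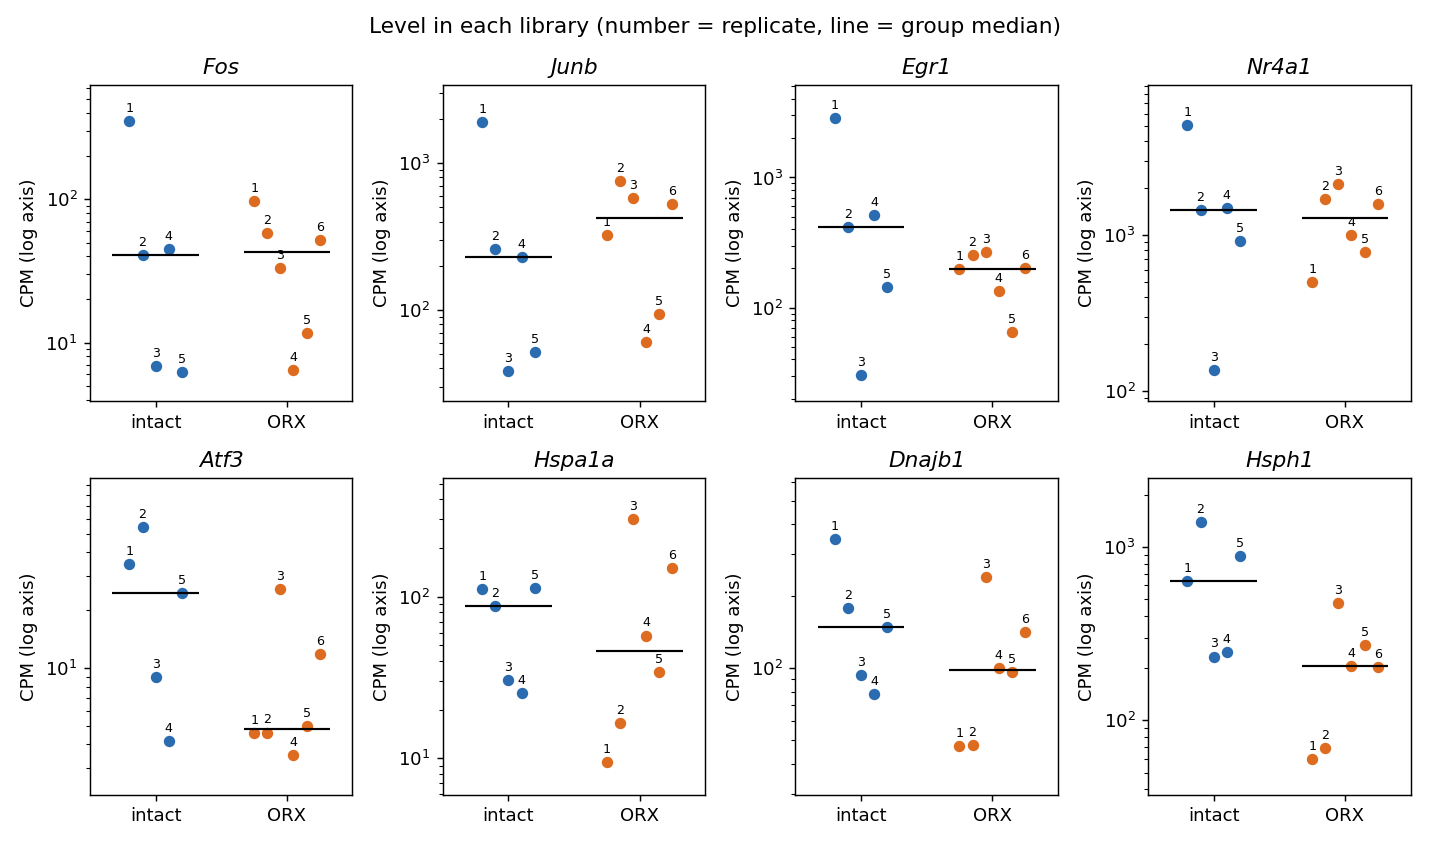
Each point is 1 library, numbered by replicate, with its level in CPM on a log axis; blue is intact (n = 5), orange is ORX (n = 6), and the line is the group median. Intact 1 is highest for Fos, Junb, Egr1, Nr4a1 and Dnajb1, while ORX 3 is highest for Hspa1a and intact 2 for Atf3 and Hsph1.

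Among the zinc finger factors, Egr1 (chromosome 18, 34859823 to 34864984), which is induced with Fos by growth and stress signals, was 10.2-fold above the median of the other intact libraries in intact 1. Egr1 stood at 2852, 414, 30.5, 519 and 144 CPM in intact 1 to 5, and at 64.5, 199 and 265 CPM as the lowest, median and highest of the 6 ORX libraries. The groups overlapped, with intact 3 the lowest of all 11 and intact 5 inside the ORX range. Egr3 stood at 28.6, 7.9, 1.46, 3.85 and 3.03 CPM in intact 1 to 5, and at 0.0754, 1.18 and 2.95 CPM as the lowest, median and highest of the 6 ORX libraries. Egr3 (chromosome 14, 70077203 to 70082614), which acts downstream of Egr1 in many cells, had no intact value below 1.46 CPM, and 5 of 6 ORX libraries lay at 1.49 CPM or below; ORX 6 had 1 count. Egr2 was highest in intact 1 (39.7 CPM) and lowest in intact 3 (1.06 CPM), with ORX between 1.13 and 3.83 CPM. Egr4 had at most 12 counts in a library and was not tested.

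Of the NR4A orphan receptors, which bind promoters of steroidogenic genes, Nr4a1 and Nr4a2 had the same order of intact libraries as Egr1. Nr4a3 shared the highest (intact 1) and the lowest (intact 3), but not the order between them. Nr4a1 stood at 5097, 1458, 138, 1484 and 917 CPM in intact 1 to 5, and at 501, 1285 and 2124 CPM as the lowest, median and highest of the 6 ORX libraries. Nr4a1 (chromosome 15, 101254269 to 101274795) was lowest in intact 3 and highest in intact 1, with all 6 ORX libraries between them. Nr4a2 stood at 841, 68.9, 9.67, 73.5 and 41.5 CPM in intact 1 to 5, and at 29, 88.1 and 317 CPM as the lowest, median and highest of the 6 ORX libraries. Its second highest library was ORX 3. Nr4a3 was at 3.54 CPM in ORX 6, against 20.3 to 114 CPM in the other 10 libraries. ORX 6 is also the library with low levels of long transcripts. The part of that in the Nr4a3 and Egr3 levels of ORX 6 was not tested. Of the Krüppel-like factors, Klf4 was 2.67-fold higher in intact 1 (133 CPM) than in any other library. Klf6, Klf10 and Myc, the growth regulator, were not highest in intact 1. Myc ran from 33.3 to 96 CPM in intact and from 58.8 to 94.3 CPM in ORX.

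Of the feedback inhibitors, Dusp1, a phosphatase of the stress MAP kinases, was at its highest in intact 1. Dusp1 stood at 251, 95.2, 47.7, 105 and 51.6 CPM in intact 1 to 5, and at 57.9, 112 and 143 CPM as the lowest, median and highest of the 6 ORX libraries. The ORX libraries lay inside the intact range. Dusp4 stood at 35, 20.1, 46.6, 33.4 and 33.9 CPM in intact 1 to 5, and at 6.71, 18.6 and 20.7 CPM as the lowest, median and highest of the 6 ORX libraries. Dusp4, a nuclear MAP kinase phosphatase (chromosome 8, 34807297 to 34819894), had its highest level in intact 3, and intact 2 (20.1 CPM) overlapped ORX 1 (20.7 CPM) and ORX 4 (20.4 CPM). Dusp5, a phosphatase for ERK, spanned 62-fold in intact and 5.22-fold in ORX. Dusp6, the cytoplasmic ERK phosphatase, was highest in intact 2 (347 CPM) and at 112 CPM in intact 1. Btg2, Zfp36, Rgs2 (a brake on G protein signalling) and Sik1 were all highest in intact 1, with 679.8, 284, 1426 and 496 CPM. The next highest libraries for these were ORX 2 (185 CPM of Btg2 and 254 CPM of Sik1), intact 2 (133 CPM of Zfp36) and ORX 6 (1009 CPM of Rgs2). Dusp2 had 6 to 26 counts in a library.

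Among the 8 other early response genes, most were highest in intact 1. Ier2, Ier3, Cyr61, Gadd45b, Gadd45g and Arc were highest in intact 1, while Ier5 and Ctgf, a matricellular growth factor, were highest in intact 2. Gadd45b, a stress-induced regulator of p38 signalling, ran from 49 CPM in intact 3 to 707 CPM in intact 1, with 428 CPM in ORX 6 and 395 CPM in ORX 3. Arc, a synaptic plasticity gene induced with Egr1, was at 39.7 and 16.2 CPM in intact 1 and 2 and between 2.87 and 8.18 CPM in ORX. Cyr61, a matricellular protein gene, was at 111 CPM in intact 1 and 59.1 CPM in ORX 3, with its lowest level, 9.82 CPM, in ORX 4.

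The chaperone genes had their own order of libraries. Hspa1a and Hspa1b (chromosome 17, 34969190 to 34972156 and 34956436 to 34959238) encode the inducible HSP70 proteins. Hspa1a stood at 112, 87.4, 30.6, 25.2 and 114 CPM in intact 1 to 5, and at 9.55, 45.9 and 299.9 CPM as the lowest, median and highest of the 6 ORX libraries. ORX 3 was the highest of all 11 libraries and ORX 1 and 2 the lowest, a 31.4-fold span that encloses the intact group. Hspa1b stood at 166, 229, 59, 34.1 and 176 CPM in intact 1 to 5, and at 13.1, 69.6 and 395 CPM as the lowest, median and highest of the 6 ORX libraries. Here too ORX 3 was highest and ORX 1 and 2 lowest. The genes are near-identical copies, so reads could have been split between them and the levels of each are uncertain. Their promoters matched in 247 of the 250 bases before the start. The window of Hspa1a is printed for its element of the HSF1 type, a pair of inverted GAA units, in capitals (150 bases before the RefSeq start, GRCm38.p6, 5′ to 3′; Hspa1a chr17:34972157-34972306, minus strand):
Hspa1a: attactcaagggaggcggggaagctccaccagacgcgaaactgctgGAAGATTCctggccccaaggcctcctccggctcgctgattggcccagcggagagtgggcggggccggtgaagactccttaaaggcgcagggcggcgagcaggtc

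Of the searched forms, on both strands, GAANNTTC was in Hspa1a, Hspa1b, Fosl2 and Jun (7.73% of all genes) and TTCNNGAA in Hsph1, Egr2 and Cyr61 (8.11% of all genes). The longer forms, with a further inverted unit and thus containing the shorter ones, were in no member and in 0.514% of all genes each. Dnajb1, the HSP40 partner that delivers clients to HSP70, had no match to these forms in its window. Dnajb1 stood at 345, 179, 93.5, 77.8 and 148 CPM in intact 1 to 5, and at 47.5, 98.3 and 240.3 CPM as the lowest, median and highest of the 6 ORX libraries. Intact 1 and ORX 3 were highest, and ORX 1 and 2 lowest, within a 5.06-fold range in ORX. Hsph1 stood at 633, 1384, 234, 249.5 and 889 CPM in intact 1 to 5, and at 59.7, 206 and 473 CPM as the lowest, median and highest of the 6 ORX libraries. Hsph1, the HSP110 nucleotide exchange factor (chromosome 5, 149614287 to 149636376), was highest in intact 2 and 5, and ORX 1 and 2 lay below all other libraries.

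Early response genes and chaperones deviated in part in different libraries. ORX 2 was above its group in Fos-type genes (22 of 37 early response members above the group mean, mean deviation 0.25 on the log2 scale), while all 4 chaperones were at least 2-fold below the median of the other ORX libraries there (chaperone mean deviation -1.47). Intact 5 was low in early response genes (mean deviation -0.59) and above its group in all 4 chaperones (0.59). Intact 1, intact 2 and ORX 3 were above their groups in both (early 1.57, 0.56 and 0.77; chaperones 0.75, 0.82 and 2.01). Intact 3, intact 4 and ORX 1 were below in both (early -1.22, -0.32 and -0.23; chaperones -0.92, -1.23 and -1.78). ORX 6 was at its group mean in early response genes (0.01) and above it in chaperones (0.99). ORX 4 and 5 were below in early response genes (-0.35 and -0.45) and slightly above in chaperones (0.17 and 0.08). Within groups, Egr1 deviated together with Fos over the 11 libraries (Pearson r = 0.85, exact permutation p = 0.00368, adjusted over 4 relations 0.00736; Spearman rho = 0.70, exact permutation p = 0.035, adjusted 0.07). Without intact 1 and 5, the libraries farthest from the median of Fos, r was 0.74 (exact permutation p = 0.0303), and without intact 1 alone it was 0.72 and no longer passed (exact permutation, adjusted p = 0.0508). Dnajb1 deviated together with Hspa1a (r = 0.92, exact permutation p = 0.000289, adjusted 0.00116; rho = 0.93, exact permutation p = 0.0011, adjusted 0.0044), also without ORX 1 and ORX 3 (r = 0.86, exact permutation p = 0.0059). No relation passed between Fos and Hspa1a (r = -0.04, exact permutation p = 0.902, adjusted 0.902; rho = -0.26, exact permutation p = 0.44, adjusted 0.587) or Fos and Atf3 (r = 0.27, exact permutation p = 0.5, adjusted 0.667; rho = 0.15, exact permutation p = 0.697, adjusted 0.697). Without intact 1 and 5, these were r = -0.16 and 0.22. All tests were two-sided, on deviations from the group mean, permuted within groups.

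**Figure D4:**
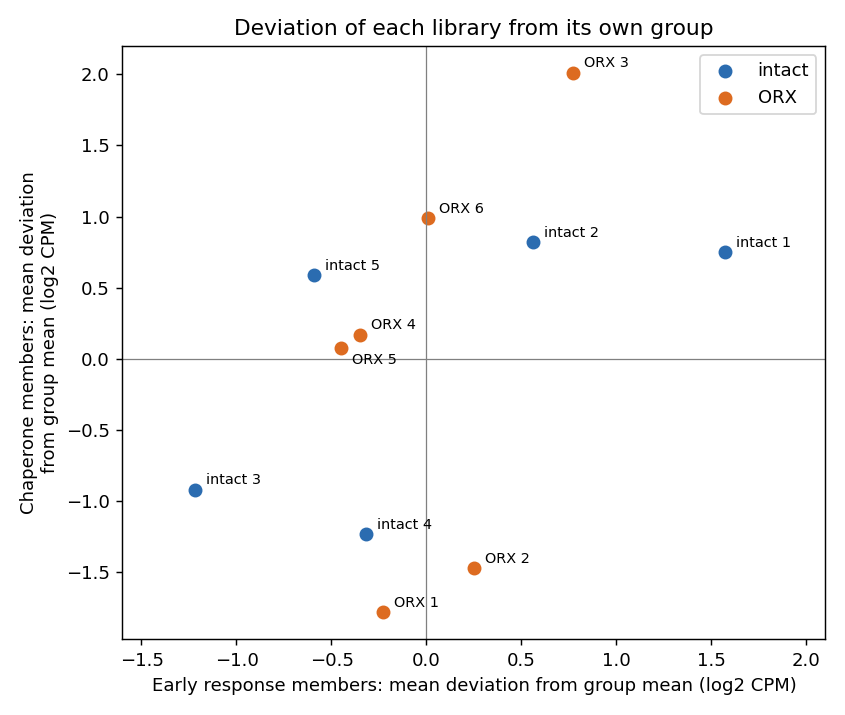
Each point is 1 library (blue intact, orange ORX), with the mean deviation from its own group mean over the 37 early response members on the horizontal axis and over the 4 chaperones on the vertical axis, both in log2 CPM. Intact 1 lies farthest right (1.57), ORX 3 highest (2.01), and ORX 1 and 2 lowest (-1.78 and -1.47) near the middle of the horizontal axis.

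Against this spread, few members differed between ORX and intact. Egr3 and Dusp4 fell in ORX, none rose, and 39 of 41 did not pass (quasi-likelihood test of edgeR, two-sided, p adjusted over all 14139 genes by Benjamini-Hochberg, threshold 0.05). The share called, 4.88%, lies near that of all genes, of which 6.21% were called (3.03% higher and 3.18% lower). At an unadjusted p under 0.05, 13 members (31.7%) were lower and 0 higher, against 12.2% of all genes lower and 10.7% higher (22.9% in either direction). DESeq2 called 4 of 42 members and limma voom 3 of 41, all lower, where these tools called 5.81% and 7.74% of all genes lower (11% and 14.5% in either direction). In 0 of 41 members did the groups separate without overlap, as they did in 5.28% of all genes. Egr3 had a log2 fold change -2.79 ± 0.75 (SE; edgeR adjusted p = 0.044), and its mean was 8.96 ± 11.2 CPM in intact and 1.28 ± 0.952 CPM in ORX (SD, n = 5 and 6). Dusp4 had a log2 fold change -1.11 ± 0.30 (SE; edgeR adjusted p = 0.0434), with 33.8 ± 9.39 and 15.6 ± 6.2 CPM. The log2 value of Egr3 was -1.65 without intact 1, and from -3.22 to -1.65 over all libraries left out in turn. With a transcript length offset it was -2.79, and without ORX 6 it was -2.55 (edgeR adjusted p = 0.0431 and 0.0592). Both calls ended without any 1 of 8 libraries: for both, intact 1, intact 5 and ORX 1, 2, 4 and 5, for Egr3 also intact 2 and ORX 6, and for Dusp4 also intact 3 and 4 (adjusted p by edgeR up to 0.159 and 0.0935). Egr3 also failed to pass with limma voom, and Dusp4 with library totals as scaling or without intact 3 and ORX 6 together (adjusted p = 0.0502 by limma, and 0.065 and 0.0619 by edgeR).

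The number of members with a fold change below 0 was smaller without intact 1. With all libraries, 34 of 41 members had a log2 fold change below 0, with a median of -0.54, against 0.01 over all tested genes. Without intact 1 the median was -0.03, 24 members lay below 0 and 17 above, and 10 had changed sign. No member passed in that fit (edgeR), while 3.39% of all genes (1.57% lower) passed. At an unadjusted p under 0.05 there were 11 members. The share of all genes at that cut was not computed for this fit, so nothing is read from this count. Fos went from -1.05 ± 0.92 (edgeR adjusted p = 0.532) to 0.81 (adjusted p = 0.602) and Junb from -0.34 ± 0.89 (adjusted p = 0.859) to 1.43 (adjusted p = 0.311) by edgeR. Fosb moved from -0.49 ± 1.13 to 2.79, Nr4a2 from -0.66 ± 0.94 to 1.44, Nr4a1 from -0.51 ± 0.63 to 0.36 and Dusp1 from -0.06 ± 0.39 to 0.49 (edgeR adjusted p 0.0903 or more without intact 1). Egr1 kept its sign, at -2.09 ± 0.80 with all libraries (edgeR adjusted p = 0.14) and -0.57 without intact 1. Jun (-0.54 ± 0.25), Atf3 (-1.45 ± 0.64) and Fosl1 (-2.37 ± 0.95) changed less, to -0.46, -1.31 and -2.05, and did not pass in either case. Leaving out intact 2, 3 or 4 or ORX 3 brought in calls of other members. Egr3 was lost without intact 2, and Dusp4 without intact 3 or without intact 4. No member passed without intact 5 or ORX 1, 2, 4 or 5, where 2.86% to 4.05% of all genes did. Without ORX 6, Dusp4 was the only member to pass, as did 6.21% of all genes. The share called was 3.91% of all genes (1.9% lower) without intact 2, 7.83% of all genes (4.48% lower) without intact 3, 6.29% of all genes (3.55% lower) without intact 4 and 9.12% of all genes (5.19% lower) without ORX 3. Myc was higher in ORX without intact 2, Arc and Egr2 were lower without intact 3 or intact 4, and Egr1 was lower without intact 3. Without ORX 3, 6 members were lower (Arc, Atf3, Cyr61, Dusp4, Egr3 and Hsph1).

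The chaperones did not pass either. Hspa1a was at 0.36 ± 0.75 (edgeR adjusted p = 0.815), Hspa1b at -0.10 ± 0.76 (0.956), Dnajb1 at -0.59 ± 0.45 (0.471) and Hsph1 at -1.66 ± 0.56 (0.0948). Without ORX 3, Hspa1a was at -0.46 and Hsph1 at -2.06, the latter then past the threshold (edgeR adjusted p = 0.707 and 0.0376). With limma voom Hsph1 was at -2.01 (adjusted p = 0.0329).

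**Figure D5:**
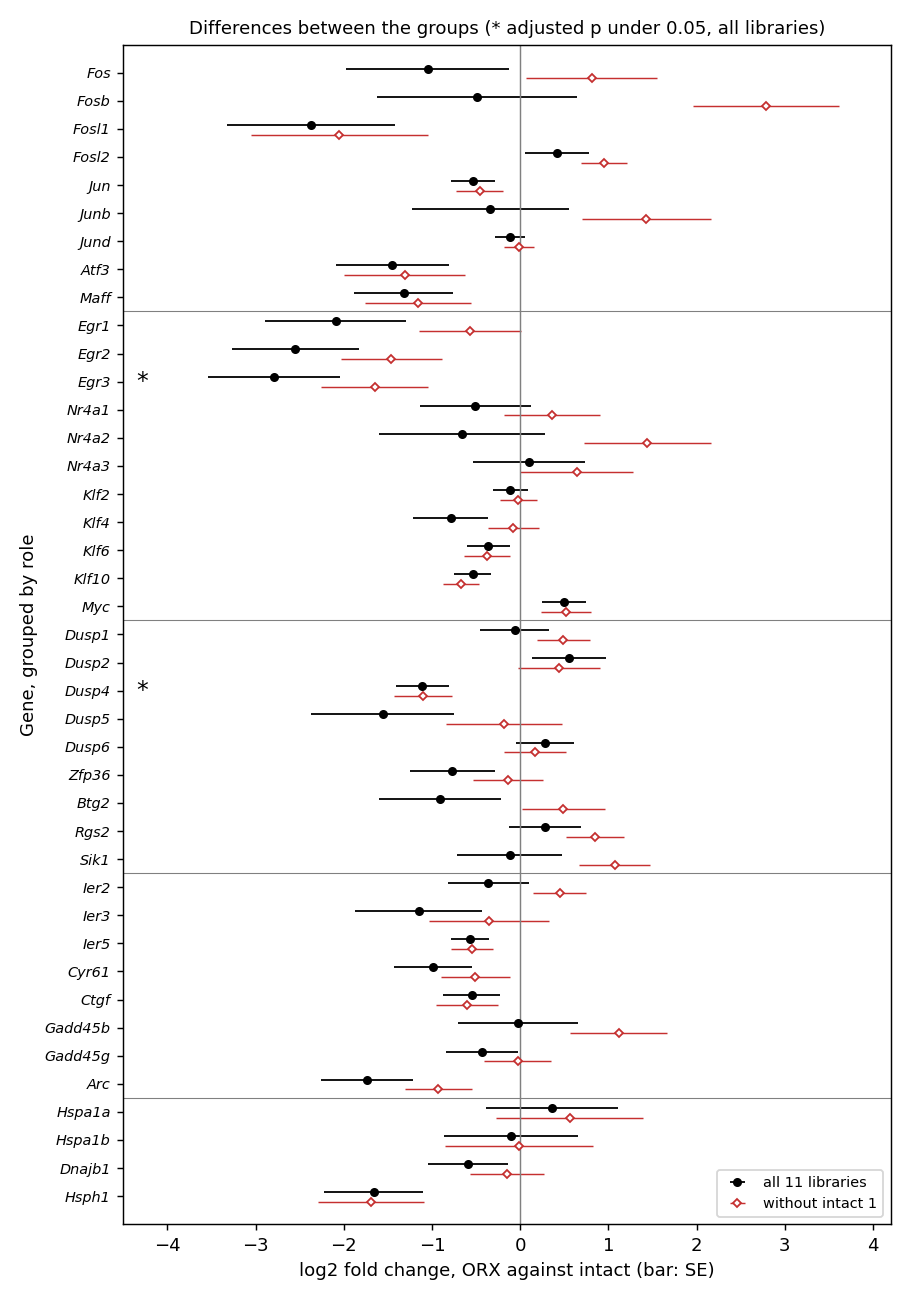
Log2 fold changes (ORX against intact, horizontal axis) of the 41 tested members, with SE bars, from all 11 libraries (black circles) and without intact 1 (open red diamonds); stars mark Egr3 and Dusp4, past the threshold with all libraries. Fos, Fosb, Junb and Nr4a2 lie below 0 with intact 1 and above 0 without it.

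Genes of the same pathways outside the set behaved in part alike. Of 35 further early response genes, 34 were tested, 3 were lower, 0 higher and 31 did not pass, with a median log2 fold change of -0.48 (13 at an unadjusted p under 0.05, 10 of them lower and 3 higher). These are 8.82% called and 38.2% at an unadjusted p under 0.05, against 6.21% and 22.9% of all tested genes. Of the 3 past the threshold, the chemokine gene Ccl2 fell in mean level from 5.88 ± 7.8 to 0.908 ± 0.41 CPM (SD, n = 5 and 6), a log2 difference of -2.68 ± 0.68 (edgeR, adjusted p = 0.0343), and Trib1, a pseudokinase gene, fell in mean level from 51.9 ± 17.7 to 28.5 ± 7.75 CPM, a log2 difference of -0.87 ± 0.23 (edgeR, adjusted p = 0.0429). The call of Trib1 was lost without intact 1, 2 or 5 or ORX 1, 2, 4, 5 or 6 (edgeR, adjusted p to 0.108) and that of Ccl2 without intact 1, 2 or 5 or ORX 1, 2, 4, 5 or 6 (to 0.0901). Without intact 2 the log2 difference of Ccl2 was -1.41. Trib1 also did not pass with the transcript length offset (edgeR, adjusted p = 0.0507). This list deviated by library much as the members did, by 0.83 in intact 1 (33 of 34 genes above the group mean), -0.84 in intact 3 (1 of 34 above) and 0.62 in ORX 3 (31 of 34). Genes that act upstream, such as SRF, CREB and MAP kinase genes, had a median SD of 0.27, below the 0.36 of all genes. Of these 26 tested genes, Rps6ka1 rose (log2 0.62 ± 0.15) and Rps6ka3 fell (log2 -1.14 ± 0.27), both kinases of the RSK family. The share called was 7.69%, near the 6.21% of all genes. The call of Rps6ka1 was lost without intact 1, 2 or 5 or ORX 1, 2 or 4 (edgeR, adjusted p to 0.0868) and that of Rps6ka3 without intact 1, 2 or 5 or ORX 2 or 5 (to 0.0761).

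Of 13 further MAP kinase feedback genes, Spry1, an inhibitor of receptor tyrosine kinase signalling, fell in mean level from 43 ± 7.78 to 26.2 ± 2.8 CPM, a log2 difference of -0.72 ± 0.14 (edgeR, adjusted p = 0.0111) and kept its call without each library in turn. Dusp10 fell too (log2 -1.03 ± 0.26), a call lost without intact 2 or 4 or ORX 2, 4 or 5 (edgeR, adjusted p to 0.0866), and 11 did not pass. The share called was 15.4%, against 6.21% of all genes. Of 22 further heat shock genes, 20 had a log2 fold change below 0, 3 were lower, 0 higher and 19 did not pass, with a median of -0.36. Here 13.6% were called, against 6.21% of all genes. Hspb1, a small heat shock protein gene, fell in mean level from 121 ± 83.7 to 22.9 ± 15.1 CPM, a log2 difference of -2.40 ± 0.54 (edgeR, adjusted p = 0.0205), Hspa4l, an HSP110 relative, fell (log2 -1.27 ± 0.30), and so did Cryab, the alpha-B crystallin gene (log2 -0.91 ± 0.23). The call of Hspb1 was lost without intact 2 or 5 or ORX 5 (edgeR, adjusted p to 0.06), that of Hspa4l without intact 2 or 5 or ORX 1, 2 or 4 (to 0.0751) and that of Cryab without intact 2, 4 or 5 or ORX 2, 4 or 5 (to 0.0804). Hspa4l also did not pass with the transcript length offset, nor Cryab without intact 3 and ORX 6 together (edgeR, adjusted p = 0.0833 and 0.0608).

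Marker lists of the cell types in the glands were compared in the same fit. Over all 14139 tested genes, 6882 had a log2 fold change below 0, 22.9% were at an unadjusted p under 0.05 and 6.21% passed the threshold. The 8 medulla markers summed to 11446 to 27205 CPM in intact and 6154 to 16034 CPM in ORX, with 7 of 8 log2 fold changes below 0 and none past the threshold (edgeR; 5 at an unadjusted p under 0.05). The 7 smooth muscle markers summed to 379 to 557 and 174 to 490.2 CPM, with 7 of 7 log2 fold changes below 0 and none past it (5 at an unadjusted p under 0.05). Of the endothelial markers, with 7 of 8 log2 fold changes below 0 and sums of 678 to 1064 and 654 to 872 CPM, Vwf, the von Willebrand factor gene, fell (log2 -1.29 ± 0.30; edgeR, adjusted p = 0.0253) as the single call. Counting Vwf, 5 were at an unadjusted p under 0.05. The fat markers, with 8 of 8 log2 fold changes below 0 and none past the threshold (0 at an unadjusted p under 0.05), summed to 2956 to 8975 and 1944 to 10070.4 CPM. No marker passed among the fibroblast and capsule genes (6 of 8 log2 fold changes below 0; 2 at an unadjusted p under 0.05), the blood cell genes (4 of 4 log2 fold changes below 0; 2 at an unadjusted p under 0.05), the macrophage genes (3 of 8 log2 fold changes below 0; 0 at an unadjusted p under 0.05) or the kidney and liver genes (0 of 3 log2 fold changes below 0; 2 at an unadjusted p under 0.05). The cortex markers summed to 28475 to 70470 and 48788 to 72051 CPM, with 3 of 8 log2 fold changes below 0. Cyp21a1, which encodes steroid 21-hydroxylase, rose (log2 0.92 ± 0.20, edgeR, adjusted p = 0.0187), as did Mc2r, the corticotropin receptor gene (log2 1.10 ± 0.19, edgeR, adjusted p = 0.0053). Fits without single libraries are not given for these genes. Counting them, 4 cortex markers were at an unadjusted p under 0.05, 3 higher and 1 lower. The lower 1 was Scarb1 (log2 -1.15 ± 0.43, edgeR, adjusted p = 0.127). The part of these cell types in the members' values was not tested.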

How the data were processed

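RNA was extracted from frozen adrenal glands with TRIsure and an RNeasy kit and made into Illumina TruSeq libraries, per the labels' protocols, which name both a stranded and an unstranded guide. The authors deposited raw read counts per gene symbol, 1 column per library, in a table that holds 2 identical copies, of which the first was used. Tools listed in the submitters' processing notes are Subread 1.5.1 and bcl2fastq 1.8.4, with genome build mm10. No source used here gives the annotation, the strand setting or how multiply mapping reads were treated, so Junb, Fosl1, Dusp1 and Hspa1a, which overlap genes in GENCODE M21 (GRCm38), may share reads with them.

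Genes were kept by filterByExpr (minimum count 10, minimum total 15; 14139 genes with 99.9% of counts), TMM-scaled, and tested by quasi-likelihood in edgeR 4.0.16 (R 4.3.3). The procedure was tested on simulated data in which every gene had the same spread between libraries. That test cannot speak for members with a wider spread. CPM refer to TMM-scaled library sizes, and log2 CPM used a prior count of 2. Spans and 2-fold counts by library compare CPM, with 0.5 added for the 2-fold counts and for the spans over all genes. Each SE is the fold change divided by the root of its F statistic. All pairs of libraries of the same group differed beyond sampling noise, with chi-square at least 25.5 per degree of freedom. The labels number samples without naming mice, so p-values measure the spread between samples. The table held 166 of the 167 list symbols, counting 2 found through synonyms. Members, lists and motifs were chosen with earlier results of these data known. Values per library were given for members past the threshold, the 6 with the largest SD, and Fos, Jun, Junb, Egr1, Atf3, Nr4a1, Dusp1, Hspa1a, Hspa1b, Dnajb1 and Hsph1; other values were chosen after they were seen. A gene of the other lists is not reported here. Alternatives included DESeq2 1.42.0, limma 3.58.1 (voom), other scalings and filters, a transcript length offset and leaving out libraries.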

Additional observations from a re-analysis of the deposited data

Results flagged for a closer look

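In 3 of 82 groups of libraries (41 tested members in 2 groups), 1 library lay far from the others by Dixon's test on log2 CPM, a rule that chance meets in about 1 in 20 groups. Sik1, the kinase gene that restrains CREB coactivators, was at 496 CPM in intact 1, against 49.8 to 95.2 CPM in the other intact libraries. Arc was at 8.18 CPM in ORX 3, against 2.87 to 4 CPM in the other ORX libraries. Klf2 was at 79.6 CPM in ORX 6, against 41.4 to 51.8 CPM in the other ORX libraries.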

How the results depend on the processing

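The number of changed genes, 878 in the main test, was 1737 with DESeq2, 2056 with limma voom and 416 with the sample number as a replicate block, and 408 to 1280 when 1 library was left out. The 2 members lower in ORX became 1 with library totals, 4 with DESeq2, 0 with the replicate block and 0 to 6 when 1 library was left out; the 0 higher became 0 to 1. Signs turned, in values that never passed, for Fosb (1.22 with limma voom, 2.05 with the block), Nr4a2 (0.08 and 0.65), Hspa1a (-1.0 and -0.84, and -0.03 without intact 3 and ORX 6 together), Junb (0.34 with the block) and Dusp1 (0.11 with the block, 0.01 with library totals). Leaving out 1 library gave log2 ranges of Fos -1.48 to 0.81, Fosb -1.09 to 2.79, Junb -0.65 to 1.43, Nr4a1 -0.82 to 0.36, Nr4a2 -1.14 to 1.44, Dusp1 -0.26 to 0.49, Hspa1a -0.46 to 0.59 and Hspa1b -0.93 to 0.19. The causes were not tested. The correlation of Fos and Egr1 ran from 0.72 to 0.91 and that of Fos and Hspa1a from -0.24 to 0.17 when 1 library was left out. The members' median SD was 0.75 to 1.01 then (all genes 0.32 to 0.37), and 0.95 with RLE scaling or a prior count of 0.5. Same-numbered samples did not deviate together (correlations of deviations -0.28 to 0.18; 1 of 5 intact libraries correlated best with its own number), so the sample numbers were not treated as pairs.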
